A study of Mus musculus with 7 samples.

Results

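Polyamine metabolism was described here through 10 genes around Sat1 in RNA sequencing libraries from the mouse medial prefrontal cortex (mPFC). The genes were Sat1 and Smox (breakdown), Odc1, Amd1, Srm and Sms (synthesis), Oaz1 and Oaz2 (antizymes) and Azin1 and Azin2 (antizyme inhibitors), 10 of the 25467 genes in the count table. They were taken by symbol, and the set was chosen by the lower counts of Sat1 with TSP1 in this same contrast. All group differences of the 10 genes are therefore given as a description with no test.

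The groups were 4 libraries from mice treated with rhTSP1, read here as recombinant human thrombospondin-1, a secreted matrix protein (TSP1 below), and 3 libraries from mice given PBS (saline). Each library was taken as 1 mouse, since the series describes 7 different mice. The labels give no dose, route, interval, strain, sex or age. Library numbers were 1 to 4 with TSP1 and 8, 11 and 12 with PBS, so any effect of library order and the treatment cannot be told apart.

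Polyamines (putrescine, spermidine and spermine) are small, positively charged amines that bind RNA and DNA and are needed for growth. In neurons, spermine also plugs inwardly rectifying potassium channels and calcium-permeable AMPA receptors from inside the cell. Cells hold their polyamines steady by feedback: Sat1 and the antizymes are induced when polyamines are plentiful and remove them, whereas Odc1 and Amd1 make them when they are scarce.

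Part of this feedback lies in the coding sequence of the antizyme messages, which ends in an early stop unless ribosomes slip by a base when polyamines are high. The stretch around that stop is shown for both antizymes because a transcript count cannot say how many ribosomes slip. The Oaz1 stretch is chr10:80828268-80828327 and the Oaz2 stretch chr9:65686245-65686304, both on the plus strand of GRCm38, read from GENCODE M21 transcripts. Capitals mark the stop codon of the starting reading frame and the codon before it.
Oaz1: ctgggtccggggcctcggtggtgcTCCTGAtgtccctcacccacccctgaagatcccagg
Oaz2: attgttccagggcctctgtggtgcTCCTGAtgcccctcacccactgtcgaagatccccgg
The stop came after 68 codons in Oaz1 and after 32 in Oaz2, and 49 of the 60 bases were identical (81.7%), with an unbroken identical run of 15 bases across the stop.

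Sat1 carries a second kind of switch, an extra exon of 110 bases (chrX:155215121-155215230, minus strand, GRCm38) that GENCODE M21 places in a transcript marked for nonsense-mediated decay and not in the full-length coding transcript. High polyamines are known to favour skipping of this exon. The lines below give the last 30 coding bases of the exon before it in lower case, followed in capitals by the next 14 coding bases of each transcript. Both are on the minus strand, spliced within chrX:155214121-155215630 for the coding transcript and chrX:155215217-155215630 for the decay transcript.
Sat1 coding transcript: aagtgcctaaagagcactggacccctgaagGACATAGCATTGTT
Sat1 decay transcript: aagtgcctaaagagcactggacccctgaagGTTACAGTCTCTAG
In the decay transcript the capitals end in the stop codon TAG. The deposited counts are per gene and pool both transcripts, so the Sat1 values below include any message with the extra exon.

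Libraries held 15090336 to 20755167 counts. Values are CPM, each count scaled to library size, after TMM scaling, and every one of the 10 genes passed the low-count filter, with 409 to 5106 counts in any library. The 4 cortical excitatory neuron markers (Slc17a7, Camk2a, Neurod6, Tbr1) were present in every library, at a summed 4683 to 6760 CPM with TSP1 and 6194 to 6922 CPM with PBS. A pair of TSP1 libraries stood apart. In replicate 4 the 8 striatal markers summed to 589.7 CPM, against at most 253.6 CPM in the other TSP1 libraries and 225.2 to 246.8 CPM in PBS libraries, and the 7 oligodendrocyte markers summed to 8452 CPM, against at most 4319 CPM in the other TSP1 libraries and 4633 to 5821 CPM in PBS libraries. In TSP1 replicate 3 the 5 blood markers summed to 341.8 CPM, against 43.5 to 82.3 CPM in the other TSP1 libraries and 84.1 to 123.1 CPM in PBS libraries. Without TSP1 replicate 3 the log2 fold change (TSP1 over PBS) was -0.40 for Sat1 and -0.28 for Oaz1, and without TSP1 replicate 4 it was -0.42 for Sat1 and -0.24 for Oaz1.

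Over all genes, edgeR's quasi-likelihood test called 0 of 17211 tested genes at a Benjamini-Hochberg FDR under 0.05 (a background of 0%). The smallest FDR of that test was 0.0536, close to the threshold. Without adjustment 1661 genes (9.65%) had a p under 0.05, and DESeq2 called 88 genes and limma-voom 0. The groups did not overlap at 10.1% of all genes tested, with every TSP1 library below every PBS library at 5.26% and above at 4.83%. Among the 10 polyamine genes 2 were apart in the first way, Sat1 and Oaz1, 0 in the other, and 8 overlapped. As these genes were assembled with the same contrast known, nothing is read from that count. The fitted log2 fold change (TSP1 over PBS) was below 0 for 7 and above 0 for 3 of the 10, with a median of -0.06, against a median of 0.00 over all genes tested. Without TSP1 replicate 4 the same 2 genes were apart, at a background of 8.13% lower and 7.17% higher. Leaving out a library cannot make groups that are apart overlap. Sat1 and Oaz1 were therefore bound to stay apart in each of the 7 sets that left out 1 library, and nothing is read from it. Such omissions can only add genes to those apart. They added Smox, lower without TSP1 replicate 2 (8.56% of all genes tested), and Azin2, lower without TSP1 replicate 3 (7.43%). Also added were Amd1, higher without TSP1 replicate 1 (7.25%), and Sms, higher without PBS replicate 3 (8.13%).

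**Figure D1:**
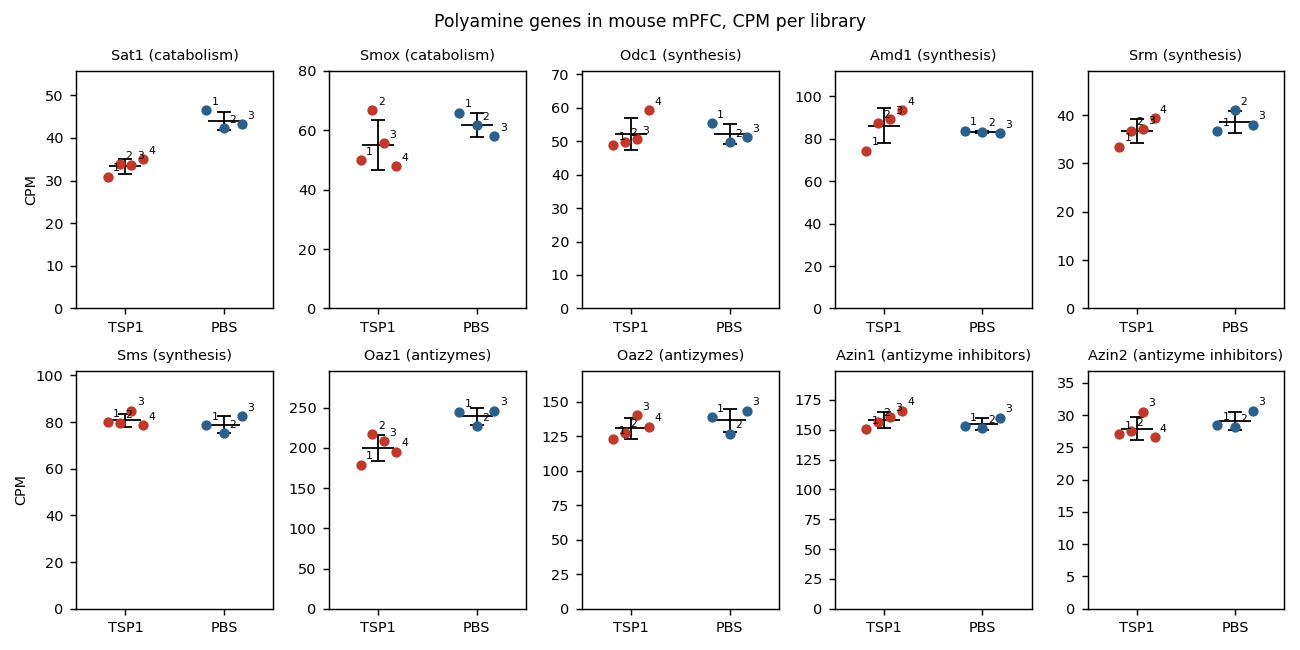
CPM of the 10 genes in each library (points, numbered by replicate), with a horizontal line at the group mean and error bars of 1 SD; each vertical axis starts at 0. In Sat1 and Oaz1 all 4 TSP1 points lie below all 3 PBS points, and in the other 8 genes the groups overlap.

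Of the breakdown enzymes, Sat1 had the lower level in every TSP1 library. Sat1 (ENSMUSG00000025283; chrX:155213132-155216449, minus strand) encodes spermidine/spermine acetyltransferase, which tags polyamines for export or oxidation and is the most strongly regulated step of their removal. It had 468, 629, 615 and 643 counts in TSP1 replicates 1 to 4 and 974, 716 and 707 counts in PBS replicates 1 to 3. As CPM these were 30.9, 33.8, 33.7 and 35.0 with TSP1 and 46.5, 42.3 and 43.2 with PBS. The highest TSP1 library was below the lowest PBS library, and replicates 2 and 3 of TSP1 were nearly equal. Sat1 averaged 33.4 ± 1.77 CPM in TSP1 libraries (SD, n = 4) and 44.0 ± 2.22 CPM in PBS libraries (SD, n = 3), a fitted log2 fold change of -0.40 (SE 0.07) or 24.2% less with TSP1. Leaving out each library in turn moved this log2 fold change only between -0.42 and -0.36, and it was -0.42 without TSP1 replicate 4.

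Smox, spermine oxidase, turns spermine straight back into spermidine and releases hydrogen peroxide. It lies at chr2:131491496-131525922 on the plus strand. Its levels were 49.8, 66.7, 55.7 and 47.8 CPM with TSP1 and 65.9, 61.7 and 57.9 CPM with PBS. TSP1 replicate 2 was the highest of all 7 libraries while TSP1 replicate 4 was the lowest, so the groups overlapped, and the spread of Smox between libraries of a group was the widest of the 10 genes (pooled SD 0.18 log2 units). The fitted log2 fold change of Smox was -0.17 (SE 0.10); it was -0.27 without TSP1 replicate 2 and -0.10 without TSP1 replicate 4.

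The 4 synthesis genes lay close together between the groups, with log2 fold changes from -0.07 to 0.05. Odc1, ornithine decarboxylase, makes putrescine and is the pathway's rate-limiting entry (chr12:17544794-17551505, plus strand). Its levels were 48.7, 49.8, 50.5 and 59.2 CPM with TSP1 and 55.4, 49.7 and 51.2 CPM with PBS. The highest value was that of TSP1 replicate 4, and the other 3 TSP1 libraries lay below PBS replicate 3. Both group means were 52.1 CPM, with an SD of 4.80 in TSP1 (n = 4) and 2.95 in PBS (n = 3), and the log2 fold change of Odc1 was 0.00 (SE 0.08), or -0.07 without TSP1 replicate 4.

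Amd1 makes the decarboxylated S-adenosylmethionine that donates the aminopropyl groups (chr10:40287458-40302186, minus strand). It had 74.3, 87.2, 89.3 and 93.4 CPM with TSP1 and 83.8, 83.2 and 82.6 CPM with PBS. The PBS libraries sat within a CPM or so of each other, and TSP1 libraries lay on both sides of them, with replicate 1 below and the other 3 above. Its log2 fold change was 0.05 (SE 0.07), 0.01 without TSP1 replicate 4 and 0.11 without TSP1 replicate 1.

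The aminopropyl transferases come next in the pathway. Srm, spermidine synthase (chr4:148591503-148594993, plus strand), had 33.5, 36.8, 37.1 and 39.4 CPM with TSP1 and 36.7, 41.0 and 38.0 CPM with PBS. Its groups overlapped, with a log2 fold change of -0.07 (SE 0.08). Sms, spermine synthase (chrX:157443855-157492287, minus strand), had 79.8, 79.4, 84.9 and 78.7 CPM with TSP1 and 78.6, 75.2 and 82.6 CPM with PBS. These groups overlapped too, with a log2 fold change of 0.03 (SE 0.06) and one of the smallest spreads within groups (pooled SD 0.06 log2 units).

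Antizymes bind ornithine decarboxylase, take it to the proteasome without ubiquitin and hold back polyamine uptake. Oaz1, the main antizyme of most tissues (ENSMUSG00000035242; chr10:80826656-80829290, plus strand), had 179.0, 217.1, 208.0 and 195.1 CPM with TSP1 and 244.0, 226.8 and 246.2 CPM with PBS. Every TSP1 library was again below every PBS library, but the gap was narrow, between 217.1 CPM in TSP1 replicate 2 and 226.8 CPM in PBS replicate 2. It averaged 199.8 ± 16.6 CPM in TSP1 libraries (SD, n = 4) and 239.0 ± 10.6 CPM in PBS libraries (SD, n = 3), for a fitted log2 difference of -0.26 (SE 0.07), or 16.4% less with TSP1. It ranged from -0.30 to -0.21 when libraries were left out in turn.

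Oaz2, the second widely expressed antizyme (chr9:65668001-65690300, plus strand), showed no such separation. Its levels were 122.9, 127.4, 140.0 and 131.9 CPM with TSP1 and 138.8, 126.8 and 143.5 CPM with PBS, so PBS replicate 2 lay below 3 of the TSP1 libraries. The log2 fold change of Oaz2 was -0.06 (SE 0.07). Whether Oaz1 and Oaz2 differed in their response was not tested.

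Antizyme inhibitors resemble ornithine decarboxylase but have lost its activity, and they free the enzyme by binding antizyme in its place. Azin1 (chr15:38487427-38519266, minus strand) had 150.2, 156.5, 160.9 and 166.0 CPM with TSP1 and 153.1, 151.2 and 160.0 CPM with PBS. Azin2 (chr4:128930233-128962442, minus strand), known mainly from brain and testis, had 27.0, 27.5, 30.5 and 26.6 CPM with TSP1 and 28.4, 28.1 and 30.7 CPM with PBS. Both overlapped between the groups, with log2 fold changes of 0.03 (SE 0.06) for Azin1 and -0.06 (SE 0.08) for Azin2.

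Compared per length, antizyme messages were the most abundant of the set. Levels per length are CPM per kilobase of annotated exon, over the 7 libraries. Oaz1 came first at 84.7 ± 9.68 (SD, n = 7), Oaz2 second at 44.5 ± 2.62 and Azin2 last at 7.06 ± 0.401, and these 3 ranks were the same in all 7 libraries. Azin1 (25.1), Amd1 (23.9) and Srm (23.5) followed Oaz2 with overlapping ranges, then Odc1 (15.3), Smox (14.9), Sat1 (13.7) and Sms (13.3), whose ranges overlapped each with the next. Within those runs of 3 and 4 genes neighbours did not differ beyond their spread over libraries, although Azin1 was above Amd1 inside each of the 7 libraries. Srm was above Odc1 and Sms above Azin2 in all 7 libraries with no overlap.

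The place of Sat1 in that order depended on the length used. Its annotated exons span 2774 bases in union, but its longest coding transcript has 1162 bases. The longest protein-coding transcript of each gene was also used as its length, a choice made after the data were seen. By mean, Sat1 then took place 3 at 32.7 CPM per kilobase, ahead of Azin1 at 32.2 with overlapping ranges. Sat1 was above Azin1 in only 3 of the 7 libraries. Oaz1 was then at 202.2 and Oaz2 at 72.2. With the longest annotated transcript of any kind, Oaz1 was at 85.8 and Oaz2 at 72.2 CPM per kilobase with overlapping ranges, and Sat1 took place 4 at 28.1. The antizymes held places 1 and 2 under the 3 lengths, but the size of the gap between them depended on the length.

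**Figure D2:**
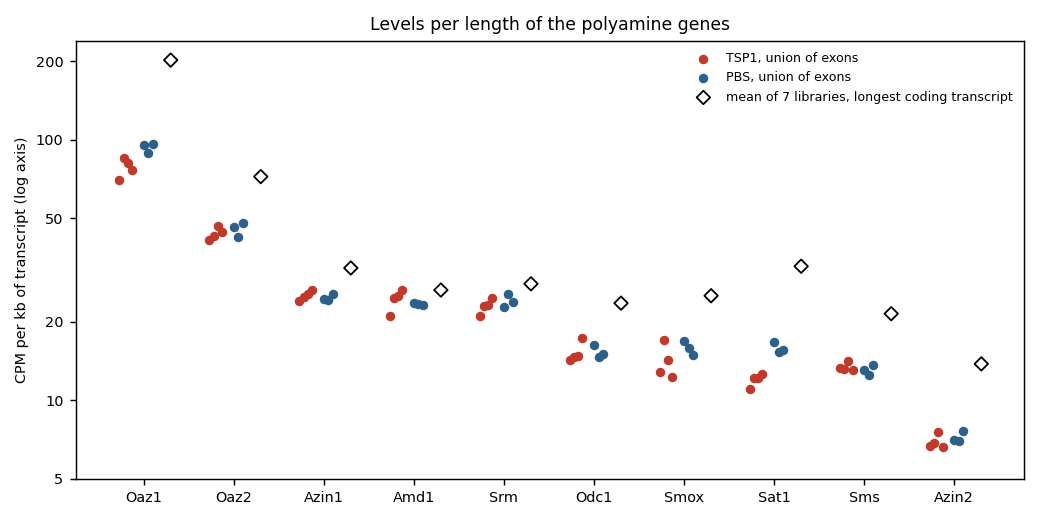
Levels per length (CPM per kilobase, log axis) of the 10 genes, ordered by the mean over 7 libraries; filled points are single libraries on the union of exons, TSP1 left of PBS, and open diamonds are the means of 7 libraries on the longest coding transcript. Oaz1 and Oaz2 are the highest on both lengths, and Sat1 is at place 8 on the union of exons and at place 3 on the coding transcript.

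The balance between antizyme messages and those of the proteins that antizymes bind can be expressed as the summed level per length of Oaz1 and Oaz2 over that of Odc1, Azin1 and Azin2. This ratio was 2.47, 2.74, 2.66 and 2.38 with TSP1 and 2.97, 2.87 and 2.99 with PBS. All TSP1 libraries lay below all PBS libraries, and averaged 2.56 ± 0.168 in TSP1 libraries (SD, n = 4) and 2.94 ± 0.066 in PBS libraries (SD, n = 3), 0.872 times as high with TSP1. It was 0.892 times as high without TSP1 replicate 4. The ratio contains Oaz1, so it repeats the difference of that gene in part and is a description of transcripts, not of protein.

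**Figure D3:**
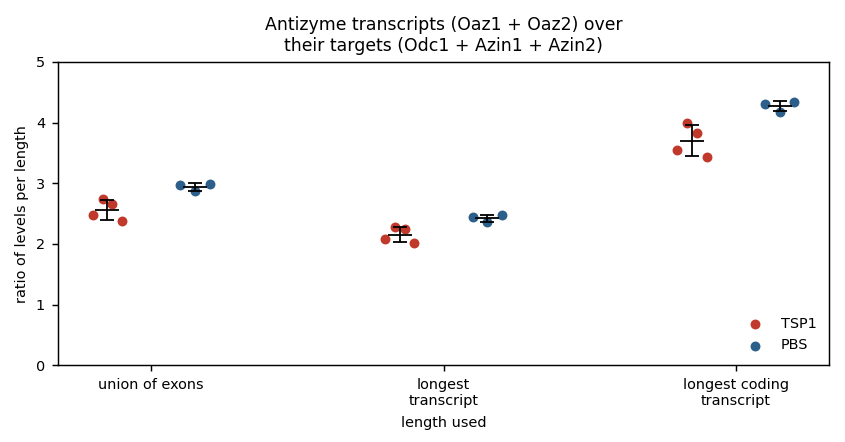
Ratio of antizyme transcripts (Oaz1 plus Oaz2) to the transcripts of their binding partners (Odc1 plus Azin1 plus Azin2) per library, with group mean and SD, for 3 ways of measuring transcript length. Under each length the 4 TSP1 points (2.38 to 2.74 on the union of exons) lie below the 3 PBS points (2.87 to 2.99).

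Libraries also had levels in common across the set. Within the TSP1 group, replicate 1 was the lowest library for 7 of the 10 genes and the highest for 0, while replicate 4 was the highest for 5 and the lowest for 3. Within PBS, replicate 2 was the lowest for 7 genes. Sat1 deviated from the mean of the 7 libraries by -0.28, -0.15, -0.15 and -0.10 log2 units in the TSP1 libraries and by 0.31, 0.17 and 0.20 in the PBS libraries. Its group difference was larger than its spread within either group. As the set was chosen by Sat1 in this same contrast, nothing is read from that. Smox and Odc1 went opposite ways in TSP1 replicate 4, at -0.27 and 0.19.

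Several marker lists differed along the same split of libraries. Over all genes tested, 48.9% had a fitted log2 fold change below 0. All 13 microglia markers were below 0, and they summed to 530.9 to 673.1 CPM with TSP1 and 699.7 to 821.1 CPM with PBS. The 9 endothelial markers, also all below 0, summed to 237.9 to 300.3 CPM with TSP1 and 307.2 to 394.0 CPM with PBS. Of the 10 astrocyte markers 9 were below 0, but their sums overlapped, at 5337 to 6568 CPM with TSP1 and 6147 to 7166 CPM with PBS. Taken singly, 6 of the 13 microglia, 3 of the 9 endothelial and 3 of the 10 astrocyte markers were apart and lower with TSP1. Over all genes tested that share was 5.26%. No marker of these 3 lists was at 0 in any library.

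Sums of the oligodendrocyte precursor markers did not overlap either, at 176.5 to 191.3 CPM with TSP1 and 204.6 to 227.8 CPM with PBS. All 22 messages of cytosolic ribosomal proteins, which are short and abundant, were below 0, with sums of 3245 to 4054 CPM with TSP1 and 4082 to 4609 CPM with PBS. The 8 mitochondrial messages were below 0 as well, with sums of 35681 to 46623 CPM with TSP1 and 48794 to 51608 CPM with PBS. Apart singly and lower with TSP1 were 2 of the 3 precursor markers, 10 of the 22 ribosomal messages and 5 of the 8 mitochondrial messages. The 4 pan-neuronal markers were the list apart in the other direction, at a summed 3915 to 4039 CPM with TSP1 and 3446 to 3899 CPM with PBS. Of these 4 markers 1 was below 0, and 0 were apart singly. The 4 excitatory neuron markers were all below 0, as were 3 of the 6 interneuron markers and all 7 oligodendrocyte markers. Of the 8 striatal and 5 blood markers 0 were below 0. With all libraries, the sums of each of these further lists overlapped between the groups. Without TSP1 replicate 4 the oligodendrocyte sums were at most 4319 CPM with TSP1, below the lowest PBS sum of 4633 CPM. Apart singly were 2 interneuron markers, lower with TSP1, and 1 striatal marker, higher. Of the excitatory neuron, oligodendrocyte and blood markers 0 were apart singly. The part of these lists in the levels of Sat1 and Oaz1 was not tested. In bulk tissue, fewer cells of a type and less RNA per cell cannot be told apart.

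Sat1 and Oaz1 also have the shortest coding transcripts of the set, 1162 and 1071 bases. With offsets for coding transcript length and GC content fitted per library, chosen after the data were seen, the log2 fold change was -0.37 for Sat1 and -0.19 for Oaz1. On the union of exons, where Srm is the shortest at 1599 bases, the offsets gave -0.40 for Sat1 and -0.21 for Oaz1.

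**Figure D4:**
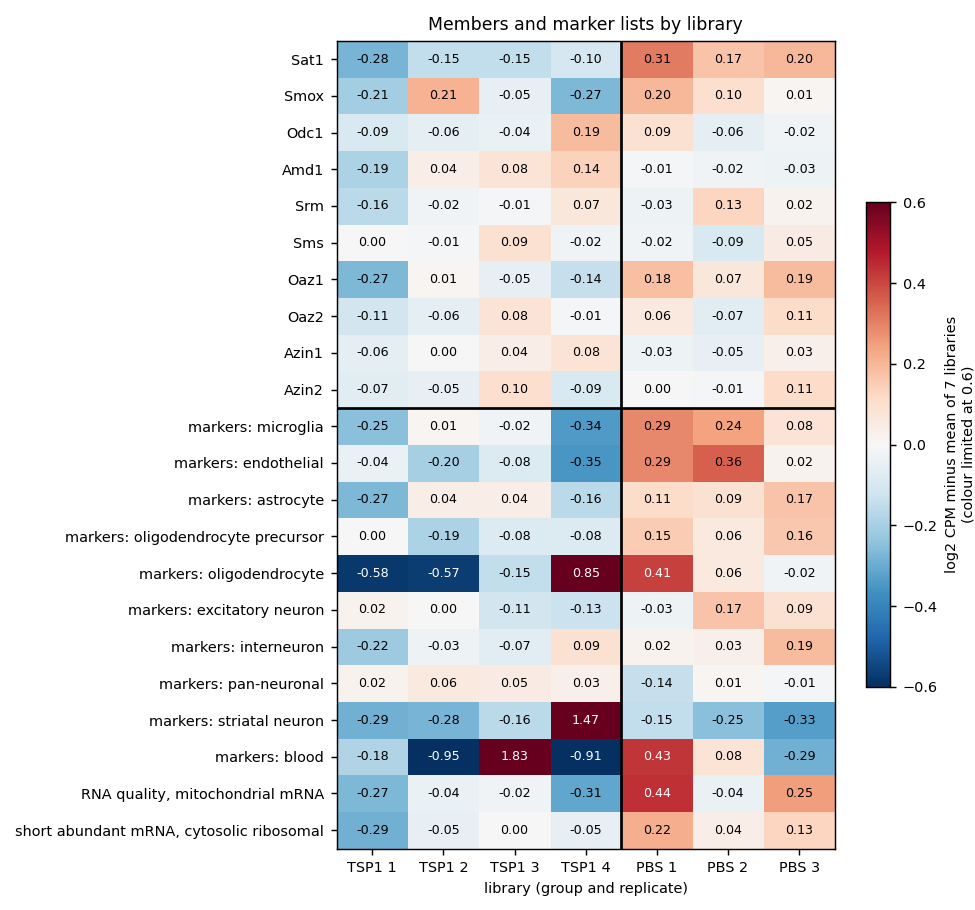
Log2 CPM minus the mean of the 7 libraries, for the 10 genes (top) and for the mean of each marker list (bottom), with TSP1 libraries left of PBS libraries; red is above and blue below that mean, with colour limited at 0.6. Sat1 is below 0 in every TSP1 library and above 0 in every PBS library, while TSP1 replicate 4 reaches 1.47 in the striatal list and TSP1 replicate 3 reaches 1.83 in the blood list.

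The genes whose pattern was most like that of Sat1 were looked for among 11498 protein-coding genes with a mean of at least 5 CPM. Over the log2 CPM of all 7 libraries, Pearson's r was highest for Lcp1 (0.99), a leukocyte actin-bundling protein, followed by Idh3b (0.989), Apba3 (0.986), Mrps7 (0.984) and Timm13 (0.983). These values include the group split. Lcp1 averaged 9.62 ± 0.819 CPM in TSP1 libraries (SD, n = 4) and 13.7 ± 0.481 CPM in PBS libraries (SD, n = 3). Oaz1 was the nearest of the other 9 polyamine genes, at r = 0.898 and rank 140 of the 11498.

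With the group means removed, the nearest gene was Gfap, the intermediate filament of astrocytes, with r = 0.998 over the 7 deviations. Scamp3 (0.992), St6gal1 (0.99), Ccs (0.989) and Wdr41 (0.986) came after it. Among the polyamine genes Amd1 (0.817) and Odc1 (0.788) then lay closer to Sat1 than Oaz1 did (0.626). The 7 points share library depth and composition, and the highest of 11498 values is high by selection, so these are descriptions with no test.

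The enzymes and carriers next to these genes were described from a list of 39 pathway genes set out by function, of which 33 passed the low-count filter. edgeR's quasi-likelihood test called 0 of the 33 at FDR under 0.05, as did limma-voom. DESeq2 also called 0 genes of the list, but gave no adjusted p for at least Oaz3 and Amd2. Before adjustment, p was under 0.05 for 3 genes lower with TSP1 (background 5.44% of all genes tested) and 1 higher (4.21%). Fitted log2 fold changes were below 0 for 17 and above 0 for 16. The groups were apart at 3 genes, each lower with TSP1 (5.26% over all genes), which were Dhps, Dohh and Atp13a4. Without TSP1 replicate 4 the count lower with TSP1 was 6, with Ass1 of arginine synthesis and Enoph1 and Adi1 of methylthioadenosine salvage added, at a background of 8.13%. Then 2 genes, Mri1 and Slc22a3, were apart and higher with TSP1, at a background of 7.17%.

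Dhps and Dohh act in sequence to turn spermidine into hypusine, a modified residue found on the translation factor eIF5A. Dhps (chr8:85071757-85075162) had 31.5, 30.5, 31.5 and 28.3 CPM with TSP1 and 37.2, 33.0 and 35.3 CPM with PBS. All TSP1 libraries were below all PBS libraries, with a log2 fold change of -0.21 (SE 0.07, edgeR adjusted p = 0.401). Dohh (chr10:81384428-81388352) had 51.2, 59.0, 55.2 and 54.0 CPM with TSP1 and 60.6, 66.5 and 65.8 CPM with PBS. It too was lower in each TSP1 library, with a log2 fold change of -0.23 (SE 0.07, edgeR adjusted p = 0.311). With the length and GC offsets these were -0.16 for Dhps and -0.12 for Dohh on the union of exons, and -0.14 for Dhps and -0.11 for Dohh on the coding transcript.

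Their substrate overlapped between the groups. Eif5a averaged 202.3 ± 14.7 CPM in TSP1 libraries (SD, n = 4) and 218.2 ± 12.6 CPM in PBS libraries (SD, n = 3). Its log2 fold change was -0.11 (SE 0.07, edgeR adjusted p = 0.67). Of the 4 hypusination genes 0 passed the adjustment over all genes.

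Among 10 tested transport genes, 0 passed the adjustment. Atp13a4, a P5-type ATPase related to the lysosomal polyamine exporter Atp13a2, had 12.9, 14.0, 13.3 and 9.70 CPM with TSP1 and 16.5, 14.4 and 18.9 CPM with PBS. Its groups did not overlap, although TSP1 replicate 2 and PBS replicate 2 nearly met, and the log2 fold change was -0.42 (SE 0.13, edgeR adjusted p = 0.328), or -0.31 without TSP1 replicate 4 and also -0.31 without PBS replicate 3. The log2 fold change of Atp13a2 was -0.06 (SE 0.06, edgeR adjusted p = 0.813). That of Slc3a2, the heavy chain of amino acid exchangers that has been tied to polyamine export, was -0.03 (SE 0.06, edgeR adjusted p = 0.905). The groups overlapped at both. Slc22a3, an organic cation transporter named here after its values were seen, was the 1 gene higher at an unadjusted p under 0.05, with 1.39, 1.83, 2.03 and 0.926 CPM with TSP1 and 0.812, 1.01 and 0.917 CPM with PBS. TSP1 replicate 4 lay within the PBS range, and its log2 fold change was 0.76 (SE 0.32, edgeR adjusted p = 0.477).

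Precursor supply overlapped as well. The most abundant genes per length there were Oat, which interconverts ornithine, and Ass1 of arginine synthesis, with log2 fold changes of -0.01 for Oat (SE 0.07, edgeR adjusted p = 0.97) and -0.19 for Ass1 (SE 0.14, edgeR adjusted p = 0.715). Ass1 was at -0.33 without TSP1 replicate 4 and at -0.09 without TSP1 replicate 2. Mat2a, the S-adenosylmethionine synthetase of most non-hepatic tissue, averaged 193.3 ± 13.6 CPM in TSP1 libraries (SD, n = 4) and 193.5 ± 8.55 CPM in PBS libraries (SD, n = 3). Its regulatory subunit Mat2b averaged 89.5 ± 3.46 CPM in TSP1 libraries and 85.2 ± 4.27 CPM in PBS libraries. Of the 7 supply genes and 8 methionine-cycle genes tested, 0 were past an unadjusted p of 0.05.

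Paox and Sat2, the tested genes listed beside Sat1 and Smox, were thinly expressed. Paox, which oxidises the acetylated polyamines that Sat1 makes, averaged 6.75 ± 0.348 CPM in TSP1 libraries (SD, n = 4) and 7.14 ± 1.07 CPM in PBS libraries (SD, n = 3). Its log2 fold change was -0.08 (SE 0.14, edgeR adjusted p = 0.903). Sat2, a paralog of Sat1, averaged 6.32 ± 0.326 CPM in TSP1 libraries and 6.51 ± 0.621 CPM in PBS libraries. Its log2 fold change was -0.05 (SE 0.14, edgeR adjusted p = 0.949). Without PBS replicate 1 the values were 0.05 for Paox and 0.04 for Sat2.

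Near-identical copies could take reads from some of the 10 genes, as how multi-mapping reads were counted is not stated. Amd2, a retrocopy of Amd1, had 9 to 25 counts per library, the pseudogene Oaz1-ps 16 to 66 and Sms-ps 154 to 243, against 1209 to 1645 counts for Sms. The levels of Amd1, Oaz1 and Sms are uncertain, and these counts set no bound on reads that were shared or discarded. Oaz3, the antizyme of the testis, averaged 1.18 ± 0.453 CPM in TSP1 libraries (SD, n = 4) and 1.21 ± 0.296 CPM in PBS libraries (SD, n = 3).

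**Figure D5:**
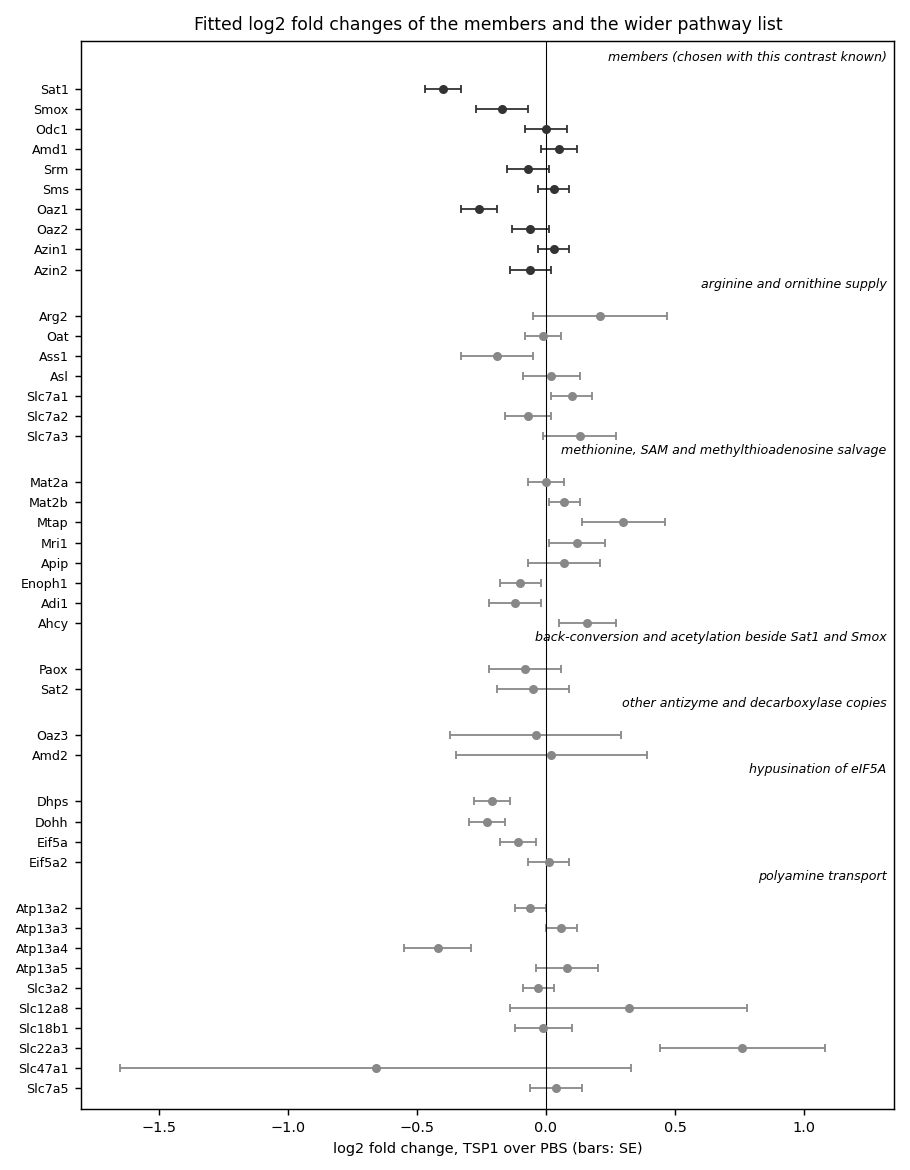
Fitted log2 fold change (TSP1 over PBS) with its SE for the 10 genes, in dark grey, and the 33 tested genes of the wider pathway list by function, in light grey; left of 0 is lower with TSP1. Sat1 at -0.40, Oaz1 at -0.26, Dhps at -0.21, Dohh at -0.23 and Atp13a4 at -0.42 are the genes whose groups did not overlap.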

How the data were processed

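RNA from the mPFC of 7 mice was sequenced (4 TSP1, 3 PBS), with 1.3 µg of total RNA per SMARTER library, per the labels' protocols. The deposited table holds raw read counts per gene, as its whole numbers with differing totals show. The builds GRCm38 and mm10 are named in the submitters' processing notes, and the aligner, counting tool, strand use and annotation are not stated there (not given in the sources used here). Columns were matched to samples by the number that opens each description, and 0 columns belonged to other samples. Gene identifiers, version dropped, were matched to GENCODE M21 (GRCm38): 25375 of 25467 matched. Sequences are from GENCODE M21 transcripts.

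Counts were fitted with edgeR 4.0.16 in R 4.3.3 (filterByExpr, TMM, robust glmQLFit and glmQLFTest of group over all 7 libraries, two-sided, Benjamini-Hochberg over 17211 genes). Each SE is the absolute log2 fold change divided by the root of its F value (median 0.112). Each adjusted p-value rests on how far TSP1 and PBS libraries differed relative to the variation among these mice within a group. Alternatives were RLE size factors, DESeq2 1.42.0, limma-voom (limma 3.58.1), no filter, at least 5 CPM in 3 libraries, a replicate block, offsets for exon length and GC content (splines with 4 degrees of freedom) and leaving out each library. On counts simulated for TSP1 against PBS (16984 genes), the test recovered 96 of 99 genes changed by a fold of 2 and 70 of 98 changed by a fold of 1.5. The simulation gave every gene the same dispersion and no differences in composition between libraries. Its folds were also larger than the changes of Sat1 and Oaz1, so it does not give the power for these.

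Genes named were the 10 members, then in each function of the wider list the 2 tested genes of highest level per length, any past the FDR threshold and any whose groups were apart, and the 5 genes most like Sat1 by each measure; Enoph1, Adi1, Mri1 and Slc22a3 were named after their values were seen. Members and lists were chosen with earlier results of these data known. Of the marker lists, 1 gene is not reported here and is left out of its list's sum.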

Additional observations from a re-analysis of the deposited data

Results flagged for a closer look

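Among the TSP1 libraries, 2 of 24 gene profiles examined held a library far from the other 3, where chance gives about 1 in 20 groups. Oat was at 70.1 CPM in TSP1 replicate 1, against 79.3 to 81.1 CPM in the other TSP1 libraries. Mat2b was at 84.3 CPM in TSP1 replicate 2, against 90.7 to 91.7 CPM in the others. None of the 10 polyamine genes was flagged in this way, but Odc1 fell only just short. It was at 59.2 CPM in TSP1 replicate 4, against 48.7 to 50.5 CPM in the other TSP1 libraries. The 3 PBS libraries are too few for this comparison.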

How the results depend on the processing

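The number of genes called was 0 with edgeR's quasi-likelihood test and also with RLE size factors, limma-voom, the stricter filter, the replicate block and the length and GC offsets with and without that block, also with coding transcript length (chosen after the data were seen). It was 88 with DESeq2, 19 with no low-count filter and 0 to 9 when single libraries were left out (9 without PBS replicate 3, 1 without PBS replicate 1 or TSP1 replicate 2); the cause was not tested. In the wider list 0 genes were called under every alternative run, though DESeq2 and the stricter filter gave no adjusted p for at least Oaz3 and Amd2. The count of wider-list genes with groups apart and lower with TSP1 was 3 with all libraries (5.26% of all genes tested). Leaving out a library can only keep or raise such a count. It was 3 to 6 when single libraries were left out, at a background of 7.38% to 9.89%, with 6 without TSP1 replicate 4 (8.13%). Genes apart and higher then numbered 0 to 2, at a background of 7.05% to 9.42%, with 2 without TSP1 replicate 4 (7.17%). Sat1, Smox, Oaz1 and Oaz2 kept a log2 fold change below 0 in all 16 alternatives, and Sat1 stayed between -0.42 and -0.36. The sign of Odc1, Amd1, Srm, Sms, Azin1 and Azin2 was not stable, or reached 0.00, in at least 1 of them. Same-numbered libraries deviated from their group means with correlations of -0.261, -0.033 and 0.0103, and differently numbered ones with -0.121 to 0.218. The labels state no pairing, and with so few libraries these correlations cannot show whether the numbers pair the mice. The replicate block gave Sat1 -0.42 and Oaz1 -0.25, and 1366 genes at an unadjusted p under 0.05, against 1661 without it. Depth allowed at least 409 counts per gene and library for the 10 genes, while Oaz3 and Amd2, near 1 CPM, had SEs of 0.33 and 0.37.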
